A study of Mus musculus with 6 samples.

Results

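The genes described here carry sugar into the cell, run glycolysis, move lactate across the membrane and admit pyruvate to mitochondria. They were 34 symbols chosen by name and matched 35 of the 55493 genes of the count table, because Aldoa has 2 rows there. The RNA came from microglia, macrophages that live in the brain, taken by a CD45-low and CD11b-positive gate. All mice were males carrying a human LILR-region transgene (ILT Telo Tg) on the 5XFAD amyloid background, and were 4 months old at the start. They received weekly intraperitoneal injections at 60 mg/kg for 8 weeks of anti-LILRB4, an antibody with a mutated Fc part that binds human ILT3 (LILRB4, a receptor that restrains myeloid cells), or of a control antibody with the same kind of Fc change. Each group had 3 libraries. The cell type that expresses the transgene is not given in the labels, and the labels do not say that libraries came from separate mice, so each p-value reflects library-to-library spread, which may be technical. The question was how blocking LILRB4 in vivo altered the microglial transcriptome, here for glucose use.

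Glycolysis splits glucose into pyruvate in the cytosol, with hexokinase and phosphofructokinase among its regulated steps. Pyruvate is either reduced to lactate and exported, or oxidised by the pyruvate dehydrogenase complex in mitochondria, a step that pyruvate dehydrogenase kinases switch off. In microglia and other macrophages, inflammatory activation is known to go with higher glycolytic flux, in which the transcription factor HIF-1 takes part. Messenger RNA levels are not flux, which was not measured.

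Total counts were between 39805118 and 56345514 per library, and the member genes took 0.549, 0.574 and 0.535% of them in anti-LILRB4 libraries 1, 2 and 3 and 0.549, 0.563 and 0.556% in control libraries 1, 2 and 3. Levels below are CPM, read counts per 1e+06 of the library after TMM scaling, and runs of 3 values follow libraries 1, 2 and 3 of a group. The sort gave microglia: the summed level of 10 microglia markers was 39850, 40640 and 39920 CPM in anti-LILRB4 libraries and 37250, 39530 and 38910 CPM in control libraries. The 10 neutrophil markers summed to 135, 1131 and 219 CPM in anti-LILRB4 libraries and 1338, 572 and 611 CPM in control libraries, so that in sum anti-LILRB4 library 2 and control library 1 were the highest. The most abundant of them was S100a8, at 57.6, 412 and 85.9 CPM in anti-LILRB4 libraries and 653, 249.5 and 284 CPM in control libraries. The groups overlapped in 8 of the 10, with log2 fold changes from -1.11 for Mmp9 to 0.95 for Cxcr2, and Ltf was also positive (0.29). The other 2, picked out after their values were seen, were lower without overlap and not high in anti-LILRB4 library 2. Over all genes tested, 14.7% had groups that did not overlap. Retnlg was at 0.0443, 0.473 and 1.77 CPM in anti-LILRB4 libraries and 25.7, 5.58 and 7.83 CPM in control libraries (log2 fold change -4.12, unadjusted p 0.00126, adjusted p 0.426, edgeR). Mmp8 was at 1.97, 1.03 and 0 CPM in anti-LILRB4 libraries and 10.1, 3.42 and 5.42 CPM in control libraries (log2 fold change -2.65, unadjusted p 0.0184, edgeR). The 6 erythroid markers summed to 0.665, 34.9 and 1.04 CPM in anti-LILRB4 libraries and 0.203, 0.545 and 0.933 CPM in control libraries, and anti-LILRB4 library 2 stood apart. The 6 neuron markers summed to 2.93, 1.14 and 1.46 CPM in anti-LILRB4 libraries and 2.19, 1.88 and 0.774 CPM in control libraries, and 5 of the 6 were below 1 CPM in every library. In bulk RNA fewer cells of a type and less RNA per cell cannot be told apart, and the part of other cells in the results was not tested.

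No gene of the group passed the test. In edgeR's quasi-likelihood test over 18210 genes, 0 of 35 members had a Benjamini-Hochberg adjusted p under 0.05, where the share over all genes was 0%, and the smallest adjusted p among members was 0.573, for Pfkl. DESeq2 called 0 of 35 members, beside 0.928% of all genes, and limma-voom called 0. Log2 fold changes of anti-LILRB4 over control libraries were positive for 18 members and negative for 17, with a median of 0.0035, against -0.0068 over all genes tested. The median absolute log2 fold change was 0.21 among members and 0.23 over all genes. An unadjusted p under 0.05 was reached by 2 members, Pfkl and Slc16a1, both lower, or 5.71% of members, where 8.03% of all genes reached it (4.12% higher and 3.91% lower). In 5 members every anti-LILRB4 library lay below every control library and in 0 every one lay above. These 5 are 14.3% of members, and 14.7% of all genes had groups that did not overlap, 6.94% higher and 7.79% lower. With both directions counted together, both shares are close to the background. All of these members were lower, and the lower-only shares of all genes were smaller (3.91 and 7.79%). The difference in direction was not tested.

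**Figure D1:**
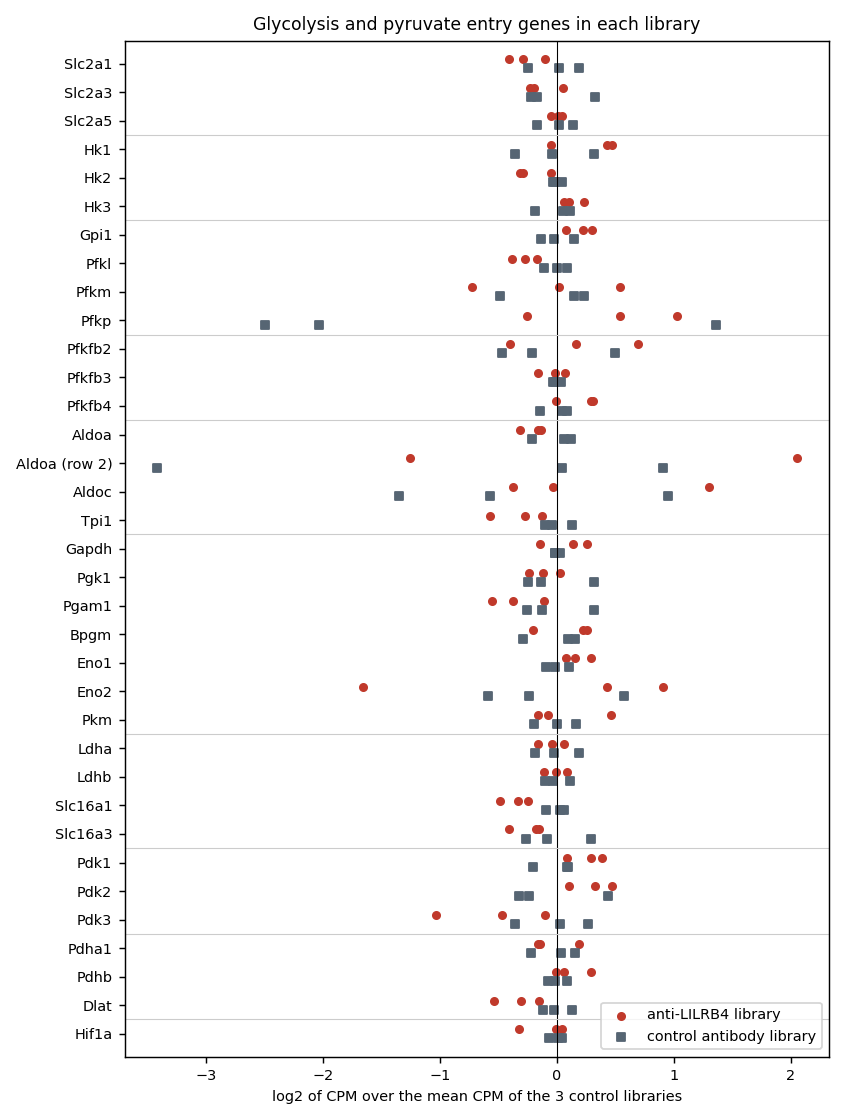
Each row is a gene and each point a library, placed at the log2 of its CPM over the mean CPM of the 3 control libraries, with anti-LILRB4 libraries as red circles and control libraries as grey squares. Grey lines part the roles. Points of the abundant genes lie close to 0, Pfkl, Slc16a1, Tpi1, Hk2 and Dlat have all red points left of the grey ones, and Pfkp, Aldoc, Eno2 and the second Aldoa row (0 in anti-LILRB4 library 3, not drawn) scatter widely within groups.

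The 5 members whose groups did not overlap sit at different steps. Pfkl, the liver-type subunit of phosphofructokinase, had 155, 134 and 145 CPM in anti-LILRB4 libraries and 175, 186 and 162 CPM in control libraries. All 3 treated libraries were below the lowest control, and the log2 fold change was -0.27 (SE 0.11, 95% interval -0.51 to -0.030, unadjusted p 0.0314, edgeR). Slc16a1 encodes MCT1, a proton-linked carrier of lactate and pyruvate, and stood at 17.7, 20.9 and 19.6 CPM in anti-LILRB4 libraries against 25.8, 23.2 and 25.1 CPM in control libraries. Its log2 fold change was -0.35 (SE 0.15, unadjusted p 0.0460, adjusted p 0.614, edgeR). Triose phosphate isomerase, Tpi1, which interconverts the triose products of aldolase, was at 58.8, 52.97 and 43.1 CPM in anti-LILRB4 libraries and 59.6, 62.1 and 70.2 CPM in control libraries, and the gap between anti-LILRB4 library 1 and control library 1 was small. Hexokinase 2, encoded by Hk2, traps glucose as glucose-6-phosphate and can bind mitochondria. It was measured at 285, 337 and 281 CPM in anti-LILRB4 libraries and 342, 361 and 345 CPM in control libraries, a log2 fold change of -0.21 (95% interval -0.44 to 0.016). Anti-LILRB4 library 2 lay just under control library 1. Dlat, the E2 acetyltransferase core of pyruvate dehydrogenase, was at 21.03, 16.1 and 18.9 CPM in anti-LILRB4 libraries and 21.5, 25.6 and 22.99 CPM in control libraries, with anti-LILRB4 library 1 just under control library 1. For Tpi1, Hk2 and Dlat the edgeR adjusted p was 0.635, 0.640 and 0.675. In the authors' deposited table the smallest adjusted p among the members was 0.314, for Slc16a1, followed by 0.32 for Pfkl and 0.469 for Tpi1.

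These 5 genes lie apart in the genome. On GRCm38, with GENCODE M21 gene models, Pfkl (ENSMUSG00000020277) spans chromosome 10, 77986947 to 78010083, minus strand, Slc16a1 (ENSMUSG00000032902) chromosome 3, 104638668 to 104658462, plus strand, and Dlat (ENSMUSG00000000168) chromosome 9, 50634633 to 50659780, minus strand. Tpi1 (ENSMUSG00000023456) and Hk2 (ENSMUSG00000000628) share chromosome 6, at 124810586 to 124814296 and 82725025 to 82774454, both on the minus strand.

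Promoter sequence of 4 of these 5 genes is shown because HIF-1 binds short core motifs upstream of glycolytic genes. It is RefSeq sequence on GRCm38.p6, on the gene's strand, from 250 bases before the RefSeq start up to that start or to the GENCODE M21 gene model, whichever comes first, at chr3:104638414-104638663 for Slc16a1, chr6:124814297-124814408 for Tpi1 (112 bases), chr6:82774455-82774704 for Hk2 and chr9:50659781-50660030 for Dlat. Capitals mark ACGTG or GCGTG, the hypoxia response cores, on either strand (CACGT or CACGC where the match is on the other strand).
Slc16a1: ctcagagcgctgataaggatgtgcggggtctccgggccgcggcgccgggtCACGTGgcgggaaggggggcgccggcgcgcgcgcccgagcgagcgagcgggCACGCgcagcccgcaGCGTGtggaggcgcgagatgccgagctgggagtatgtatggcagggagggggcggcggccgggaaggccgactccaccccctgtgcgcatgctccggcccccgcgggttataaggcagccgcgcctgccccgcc
Tpi1: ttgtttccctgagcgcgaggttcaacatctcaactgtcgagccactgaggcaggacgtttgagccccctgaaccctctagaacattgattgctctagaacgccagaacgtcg
Hk2: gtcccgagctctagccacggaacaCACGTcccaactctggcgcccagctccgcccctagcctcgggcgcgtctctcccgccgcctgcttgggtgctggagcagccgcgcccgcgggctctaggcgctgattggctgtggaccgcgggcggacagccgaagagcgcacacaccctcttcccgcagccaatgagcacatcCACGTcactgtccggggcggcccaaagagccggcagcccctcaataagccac
Dlat: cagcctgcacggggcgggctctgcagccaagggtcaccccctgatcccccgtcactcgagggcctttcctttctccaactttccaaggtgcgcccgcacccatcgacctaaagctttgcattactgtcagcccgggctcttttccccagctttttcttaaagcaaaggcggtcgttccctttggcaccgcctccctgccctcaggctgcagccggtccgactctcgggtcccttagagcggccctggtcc
The Slc16a1 stretch held 4 cores, with its CACGTG counted once on each strand, Hk2 held 2, and neither Tpi1 nor Dlat had one in these letters. The RefSeq window of Pfkl lies inside the longer M21 gene model and is not shown. Of all members, 33 of 34 symbols matched RefSeq, with 49 windows of 300 bases that run on to 50 bases past the start. ACGTG was found in 24 of these windows (49%), GCGTG in 25 (51%), at least 1 of the cores in 37 (75.5%), and CACGTG, which contains ACGTG, in 7 (14.3%). Over all 32851 RefSeq mouse promoter windows these shares were 19.6, 32.4, 43.8 and 7.15%. Median GC content was 61.3% in member windows and 52.7% in all, and the cores hold a CpG. Windows of a gene with several starts can overlap, and a match is a description of letters, not a bound site.

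Levels of different genes are compared per kb of annotated exon. The most abundant member was Slc2a5, which encodes the fructose carrier GLUT5 and is a known microglial gene, at 446 CPM per kb in anti-LILRB4 libraries and 444 in control libraries on average. Then came Ldhb (342 CPM per kb over the 6 libraries), Aldoa (178), Gapdh (102), Ldha (101) and Eno1 (73.5). Gapdh and Ldha were neighbours whose libraries overlapped, as were Pgk1, Slc2a1 and Pkm. At the low end were Pfkfb2 (0.332 CPM per kb), Pfkp (0.152) and Eno2 (0.142), below most genes tested. The length is the union of all annotated exons, 4133 bases for Gapdh, so genes with long rare exons are understated. All 35 rows passed the filter on low counts.

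**Figure D2:**
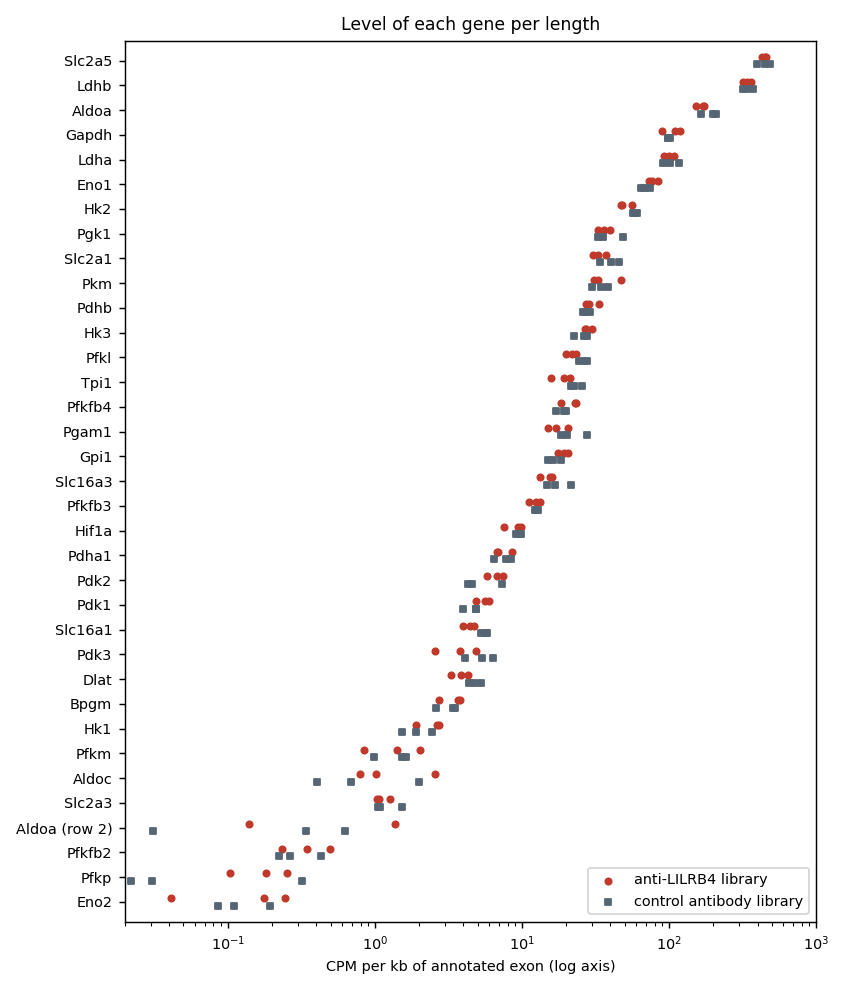
The x axis gives CPM per kb of annotated exon on a log scale, with 3 anti-LILRB4 libraries (red circles) and 3 control libraries (grey squares) for each gene. Genes run from Slc2a5, averaging 445 CPM per kb, down to Eno2 at 0.142, and for most genes the libraries of the groups lie on top of each other (a value of 0 for the second Aldoa row is not drawn).

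Slc2a5 was the most abundant of the 3 sugar carriers. It had 1560, 1526 and 1462 CPM in anti-LILRB4 libraries and 1343, 1663 and 1532 CPM in control libraries, and the 95% interval of its log2 fold change ran from -0.20 to 0.21. The groups overlapped fully, with the lowest and the highest value both in control libraries. Slc2a1, the glucose carrier GLUT1, was at 106, 131 and 115 CPM in anti-LILRB4 libraries and 161, 119 and 142 CPM in control libraries. Its log2 fold change was -0.26 (95% interval -0.57 to 0.050), and anti-LILRB4 library 2 was above control library 2. Endothelial cells also make Slc2a1. Of their 6 markers 3 were below 1 CPM in every library, and the 6 summed to 20.7, 19.7 and 11.6 CPM in anti-LILRB4 libraries and 7.66, 14.6 and 19.2 CPM in control libraries, nearly all of it Pecam1. Slc2a3, the high-affinity glucose carrier GLUT3 of neurons, was low, at 9.15, 7.71 and 7.53 CPM in anti-LILRB4 libraries and 11.03, 7.83 and 7.56 CPM in control libraries. Per kb, Slc2a5 made between 89.3 and 93.6% of the transcripts of the 3 carriers, depending on the library, and Slc2a1 between 6.17 and 10.4%.

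Hexokinase transcripts came from Hk2 and Hk3. Per kb, Hk2 made 62.6, 65.2 and 58.98% of hexokinase transcripts in anti-LILRB4 libraries and 70.4, 66.7 and 67.1% in control libraries. Hk3, a hexokinase of myeloid cells, made 34.9, 31.7 and 37.6% in anti-LILRB4 libraries and 27.7, 30.6 and 30.7% in control libraries. The log2 ratio of Hk3 to Hk2 per kb was -0.84, -1.04 and -0.65 in anti-LILRB4 libraries and -1.35, -1.12 and -1.13 in control libraries, a difference of 0.36, with every anti-LILRB4 library above every control. An exact two-sided permutation test gave p = 0.1, the smallest that 3 against 3 libraries allow, and 0.6 after adjustment over the 12 ratios compared. Hk3 itself stood at 98.2, 101 and 111 CPM in anti-LILRB4 libraries and 82.9, 102 and 97.5 CPM in control libraries, with overlapping groups. Hk1, the housekeeping hexokinase of brain, was at 16.2, 22.5 and 23.2 CPM in anti-LILRB4 libraries and 13, 20.9 and 16.2 CPM in control libraries (log2 fold change 0.31, SE 0.22). Its share of hexokinase transcripts was at most 3.4%. Summed over the 3 genes, hexokinase was at 76.4, 86.5 and 79.9 CPM per kb in anti-LILRB4 libraries and 81.3, 90.6 and 86.2 in control libraries, which overlap.

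At the phosphofructokinase step, Pfkl made between 91.6 and 95.99% of transcripts per kb. Pfkm, the muscle type, was at 6.76, 2.80 and 4.71 CPM in anti-LILRB4 libraries and 5.47, 5.13 and 3.32 CPM in control libraries, and 10.2% of its exon bases are shared with Gm26513. Pfkp, the platelet type, was at 1.40, 3.40 and 2.43 CPM in anti-LILRB4 libraries and 0.407, 4.29 and 0.296 CPM in control libraries. Control library 2 held the highest Pfkp value of all and control libraries 1 and 3 the lowest. Without control library 2 the Pfkp log2 fold change was 2.77 (adjusted p 0.428, edgeR), against 0.54 with all libraries. Its exons overlap those of Pitrm1 on the other strand over 748 bases, and the kit does not mark strand. Gpi1, which turns glucose-6-phosphate into fructose-6-phosphate, was at 114, 132 and 125 CPM in anti-LILRB4 libraries and 119, 106 and 97.5 CPM in control libraries (log2 fold change 0.21, 95% interval -0.060 to 0.47). Only anti-LILRB4 library 1 lay within the control range.

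The bifunctional PFKFB enzymes set the level of fructose-2,6-bisphosphate, the activator of phosphofructokinase. Pfkfb4 was at 112, 113 and 90.5 CPM in anti-LILRB4 libraries and 82.6, 93.8 and 96.8 CPM in control libraries, and Pfkfb3, the isozyme with the highest kinase activity, at 100, 94.2 and 84.9 CPM in anti-LILRB4 libraries and 94.5, 97.7 and 93.2 CPM in control libraries. Groups overlapped in each. The share of Pfkfb4 among PFKFB transcripts per kb was 63.01, 64.1 and 61.6% in anti-LILRB4 libraries and 57.04, 59.4 and 60.9% in control libraries, with no overlap. This share was looked at after its values were seen and was not tested. Pfkfb2, a heart isozyme, was at 1.69, 3.59 and 2.50 CPM in anti-LILRB4 libraries and 1.92, 1.61 and 3.14 CPM in control libraries, with 154 exon bases shared with the more abundant Yod1 on the other strand.

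Aldolase cleaves fructose-1,6-bisphosphate. Aldoa was at 445, 504 and 497 CPM in anti-LILRB4 libraries and 606, 478 and 581 CPM in control libraries (log2 fold change -0.20, SE 0.11), where control library 2 was the only control inside the treated range. The second Aldoa row (ENSMUSG00000114515) is a separate gene model on the same strand, whose end lies next to the start of Aldoa. It was at 0.111, 1.10 and 0 CPM in anti-LILRB4 libraries and 0.497, 0.0248 and 0.273 CPM in control libraries. It was highest in anti-LILRB4 library 2 (63 counts) and control library 1 (22 counts). In each group the summed neutrophil, monocyte and lymphocyte markers were all highest in these same libraries. The source of these few counts was not tested. Aldoc, the aldolase of astrocytes, was at 8.31, 2.59 and 3.30 CPM in anti-LILRB4 libraries and 2.26, 6.52 and 1.32 CPM in control libraries. Anti-LILRB4 library 1 and control library 2 were high. Its log2 fold change was 0.49 with all libraries, -0.19 without anti-LILRB4 library 1 and 1.41 without control library 2. The 6 astrocyte markers summed to 267, 246 and 287 CPM in anti-LILRB4 libraries and 256, 276 and 254 CPM in control libraries, nearly all of it Slc1a3, and groups overlapped in each marker. The other 5 did not exceed 1.96 CPM in any library, and their log2 fold changes were positive for Slc1a2 (0.60) and Aqp4 (1.18) and negative for Aldh1l1 (-0.15), Gja1 (-0.98) and Gfap (-2.31). Aldh1l1, picked out after its values were seen, was at 1.18, 0.596 and 0 CPM in anti-LILRB4 libraries and 0.0226, 1.96 and 0 CPM in control libraries. Like Aldoc it was highest in anti-LILRB4 library 1 and control library 2. Among control libraries, Gja1 (1.22 CPM), Aqp4 (0.610 CPM) and Gfap (1.33 CPM) were highest in library 1, Slc1a2 (0.819 CPM) in library 3 and Slc1a3 (272.5 CPM) in library 2. Among anti-LILRB4 libraries, Slc1a2, Gja1, Aqp4 and Gfap were highest in library 1 and Slc1a3 in library 3. The part of astrocyte RNA in the Aldoc values was not tested.

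The enzymes from glyceraldehyde-3-phosphate to pyruvate, which yield ATP and NADH, together with Bpgm of a side branch were 7 genes, and the log2 fold change was positive for 5 and negative for 2. Gapdh had 370.5, 491 and 452 CPM in anti-LILRB4 libraries and 406, 406 and 418 CPM in control libraries, a narrow control range inside a wide treated one (95% interval of the log2 fold change -0.16 to 0.35). Phosphoglycerate kinase, Pgk1, was at 89.3, 74.3 and 80.5 CPM in anti-LILRB4 libraries and 109, 79.5 and 73.8 CPM in control libraries. Pgam1, phosphoglycerate mutase, was at 40.6, 29.9 and 33.7 CPM in anti-LILRB4 libraries and 54.6, 36.7 and 40.01 CPM in control libraries, a log2 fold change of -0.33 (SE 0.18). Anti-LILRB4 library 1 alone lay inside the Pgam1 control range. Enolase 1, Eno1, was at 391, 456 and 412 CPM in anti-LILRB4 libraries and 348, 367 and 398 CPM in control libraries (log2 fold change 0.18, 95% interval -0.046 to 0.40), and Pkm, pyruvate kinase of muscle and most other tissues, at 154, 237 and 164 CPM in anti-LILRB4 libraries and 172, 151 and 193 CPM in control libraries. The highest Pkm value was in anti-LILRB4 library 2, and without that library the log2 fold change was -0.11, against 0.10 with it. Gene counts do not part the M1 and M2 splice forms of Pkm. Bpgm, which makes 2,3-bisphosphoglycerate in red cells, was at 13.3, 9.87 and 13.6 CPM in anti-LILRB4 libraries and 12.7, 12.2 and 9.29 CPM in control libraries. The haemoglobin gene Hbb-bs was at 13.8 CPM in anti-LILRB4 library 2 and at most 0.389 elsewhere. The part of red cell RNA in the Bpgm values was not tested. Eno2, the neuronal enolase, did not exceed 1.15 CPM in any library.

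Lactate dehydrogenase was mostly Ldhb, the heart-type subunit that favours lactate oxidation, which made between 74.7 and 78.7% of the pair per kb. Ldhb was at 499, 534 and 571 CPM in anti-LILRB4 libraries and 584, 503 and 528 CPM in control libraries, and Ldha, the muscle-type subunit, at 356, 305 and 332 CPM in anti-LILRB4 libraries and 388, 299 and 335 CPM in control libraries. The 95% interval of the log2 fold change was -0.23 to 0.21 for Ldhb and -0.30 to 0.22 for Ldha. Their log2 ratio, Ldha over Ldhb per kb, was -1.56, -1.89 and -1.86 in anti-LILRB4 libraries and -1.67, -1.82 and -1.73 in control libraries (difference -0.029, exact permutation p = 0.8). Slc16a3, the lactate exporter MCT4, was at 83.1, 84.6 and 70.9 CPM in anti-LILRB4 libraries and 115, 88.7 and 78.5 CPM in control libraries (log2 fold change -0.24, SE 0.16). Control library 1 was the highest and control library 3 lay within the treated range. The 2 carriers together were at 19.6, 20.6 and 17.8 CPM per kb in anti-LILRB4 libraries and 27.5, 21.9 and 20.4 in control libraries, where anti-LILRB4 library 2 lay above control library 3.

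**Figure D3:**
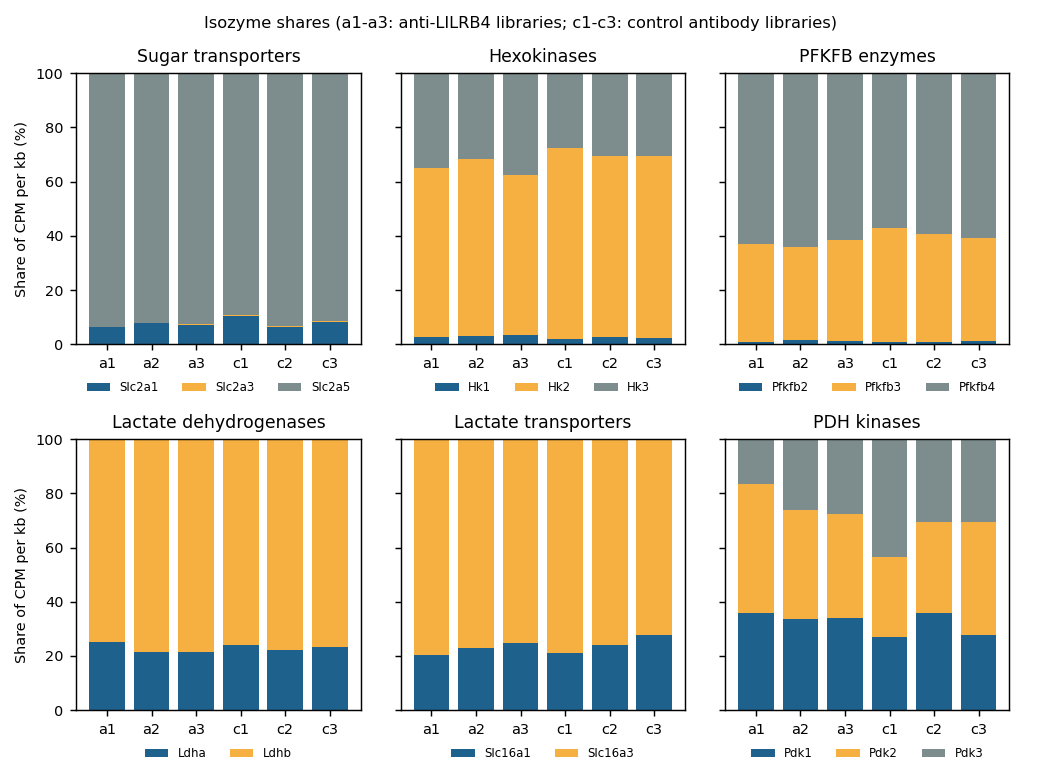
Stacked bars give each isozyme's share of the family's CPM per kb in percent, with anti-LILRB4 libraries a1 to a3 left of control libraries c1 to c3 in each panel. The Hk3 share is 34.9, 31.7 and 37.6% in anti-LILRB4 libraries and 27.7, 30.6 and 30.7% in control libraries, the Pdk3 share varies most between libraries, and the Ldha share stays between 21.3 and 25.3%.

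At the entry of pyruvate into mitochondria, 3 kinases that phosphorylate and inactivate pyruvate dehydrogenase were measured. Pdk1, a HIF-1 target, was at 43.7, 37.9 and 46.6 CPM in anti-LILRB4 libraries and 30.9, 37.8 and 38.1 CPM in control libraries (log2 fold change 0.26, 95% interval -0.065 to 0.59). Only anti-LILRB4 library 2 lay within the control range. Pdk2 stood at 23.7, 18.4 and 21.4 CPM in anti-LILRB4 libraries and 13.7, 14.5 and 23.2 CPM in control libraries, with control library 3 among the treated values. Pdk3 was at 6.61, 9.76 and 12.6 CPM in anti-LILRB4 libraries and 16.2, 10.6 and 13.8 CPM in control libraries, a log2 fold change of -0.49 (SE 0.27, adjusted p 0.687, edgeR). The log2 ratio of Pdk3 to Pdk2 per kb was -1.54, -0.61 and -0.46 in anti-LILRB4 libraries and 0.55, -0.15 and -0.45 in control libraries, a difference of -0.86. It was the second of the 12 ratios whose groups did not overlap, anti-LILRB4 library 3 and control library 3 being close (p = 0.1, exact permutation test, 0.6 adjusted over the 12 ratios). Pdk4, a further kinase, was not detectable, with at most 0.0455 CPM in any library. Among the subunits of the complex, Pdha1 (E1 alpha) was at 25.5, 25.3 and 32.2 CPM in anti-LILRB4 libraries and 24.2, 28.98 and 31.6 CPM in control libraries, and Pdhb (E1 beta) at 128, 104 and 109.8 CPM in anti-LILRB4 libraries and 112, 104 and 99.9 CPM in control libraries. Both groups overlapped for each, and 16.2% of Pdha1 exon bases are shared with Map3k15 on the other strand. Pdha1, Pdhb and Dlat summed to 44.4, 37.1 and 40.95 CPM per kb in anti-LILRB4 libraries and 39.8, 39.9 and 39.04 in control libraries.

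Groups overlapped in the other ratios, which were Hk1 to Hk2, Pfkl to Pfkm, Pfkl to Pfkp, Aldoa to Aldoc, Eno1 to Eno2, Slc16a3 to Slc16a1, Pdk1 to Pdk2, Slc2a1 to Slc2a3 and Slc2a5 to Slc2a3. Their differences in mean log2 ratio, anti-LILRB4 minus control, were between -1.76 for Pfkl to Pfkp and 0.53 for Hk1 to Hk2, and exact permutation p-values between 0.2 and 1.

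Hif1a, the oxygen-regulated subunit of HIF-1, had 57.8, 44.8 and 55.8 CPM in anti-LILRB4 libraries and 53.6, 56.5 and 57.7 CPM in control libraries (log2 fold change -0.083, 95% interval -0.38 to 0.22). Anti-LILRB4 library 2 was the lowest. HIF-1 targets outside glycolysis were a list of 16 symbols, of which 15 were in the count table and 11 were tested, and 0 passed the edgeR test. The log2 fold change was negative for 10 of the 11, with a median of -0.23, beside -0.0068 over all genes. In 4 of them, Bnip3, Egln3, P4ha1 and Ero1l, all treated libraries lay below all controls, and these had an unadjusted p under 0.05. They are 36.4% of the 11, where 7.79% of all genes were lower without overlap and 3.91% lower at that p. This list and those below were chosen with earlier results of these data known, so their shares are descriptions and not independent evidence. P4ha1 and Ero1l are named after their values were seen. Bnip3, a mitophagy receptor, was at 41.5, 37.1 and 39.9 CPM in anti-LILRB4 libraries and 62.6, 49.5 and 53.1 CPM in control libraries (log2 fold change -0.48, SE 0.14, adjusted p 0.453, edgeR). Egln3, a prolyl hydroxylase that marks HIF for destruction, was at 1.51, 1.10 and 1.04 CPM in anti-LILRB4 libraries and 4.21, 2.26 and 2.48 CPM in control libraries. P4ha1, a collagen prolyl hydroxylase, stood at 310.1, 324 and 342 CPM in anti-LILRB4 libraries and 412, 364 and 382 CPM in control libraries. Ero1l, an oxidase of protein folding, was at 2.95, 4.85 and 4.15 CPM in anti-LILRB4 libraries and 6.99, 5.28 and 7.67 CPM in control libraries. Vegfa did not pass the filter on low counts. HIF partners and oxygen sensors, a list that also holds Egln1 and Egln3 of the list before, gave 2 of 6 positive, a median of -0.14 and 0 called. The immediate early and dissociation genes, which handling of cells can induce, had negative log2 fold changes in 16 of 18 and a median of -0.30, with Klf4 at 1.53, 2.61 and 2.11 CPM in anti-LILRB4 libraries and 5.22, 6.62 and 6.19 CPM in control libraries. In 10 of the 18 every treated library lay below every control and in 1 every one lay above, together 61.1%, against 14.7% of all genes. An unadjusted p under 0.05 was found for 5 lower genes and 1 higher gene, or 33.3%, against 8.03% of all genes. No member of this list passed the edgeR test, and their part in the values above was not tested.

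Neighbouring pathways had 0 genes called in edgeR as well. Among the 7 pentose phosphate genes the median log2 fold change was 0.028, with G6pdx, the first enzyme, at 39.3 ± 6.51 CPM in anti-LILRB4 libraries and 30.5 ± 5.77 CPM in control libraries (SD, n = 3 each), and Rpia at 10.4 ± 2.33 CPM in anti-LILRB4 libraries and 13.2 ± 2.22 CPM in control libraries. Of 17 citrate cycle genes 11 were positive, the median was 0.024, and 0 reached an unadjusted p under 0.05. Idh3a, a subunit of isocitrate dehydrogenase, was at 50.2, 46.7 and 51.5 CPM in anti-LILRB4 libraries and 39.5, 43.7 and 41.3 CPM in control libraries, without overlap. The 8 other pyruvate entry genes had a median of -0.086 and 7 negative values. Pdp1, a phosphatase that reactivates pyruvate dehydrogenase, was at 5.83, 6.76 and 6.14 CPM in anti-LILRB4 libraries and 8.64, 7.29 and 8.81 CPM in control libraries, without overlap, and Pcx had a log2 fold change of 0.86. The NADH shuttle list of 9 genes had a median of 0.052. In it Got1, the cytosolic aspartate aminotransferase, was at 46.4, 43.7 and 58.5 CPM in anti-LILRB4 libraries and 60.7, 64.4 and 63.04 CPM in control libraries, while Got2, its mitochondrial partner, was at 50.5, 53.3 and 49.1 CPM in anti-LILRB4 libraries and 38.98, 43.4 and 44.6 CPM in control libraries, so the groups did not overlap in either and the signs differed. Glycogen and gluconeogenesis genes (10 tested) had a median of -0.073. Pygb, brain glycogen phosphorylase, was at 34, 51.9 and 44.2 CPM in anti-LILRB4 libraries and 28.5, 31.3 and 27.7 CPM in control libraries (log2 fold change 0.57, SE 0.17, unadjusted p 0.00747, adjusted p 0.484, edgeR), and Ugp2 had a log2 fold change of 0.24. Regulators of glycolysis (15 genes, median 0.031) included Myc, at 43.7 ± 8.01 CPM in anti-LILRB4 libraries and 57.4 ± 8.19 CPM in control libraries (SD, n = 3 each), and Prkab1, a subunit of the energy sensor AMPK, at 125 ± 2.97 CPM in anti-LILRB4 libraries and 106 ± 4.78 CPM in control libraries. The 8 tested genes of other hexose entry had a median of -0.020, with Galt of galactose use at a log2 fold change of 0.34.

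**Figure D4:**
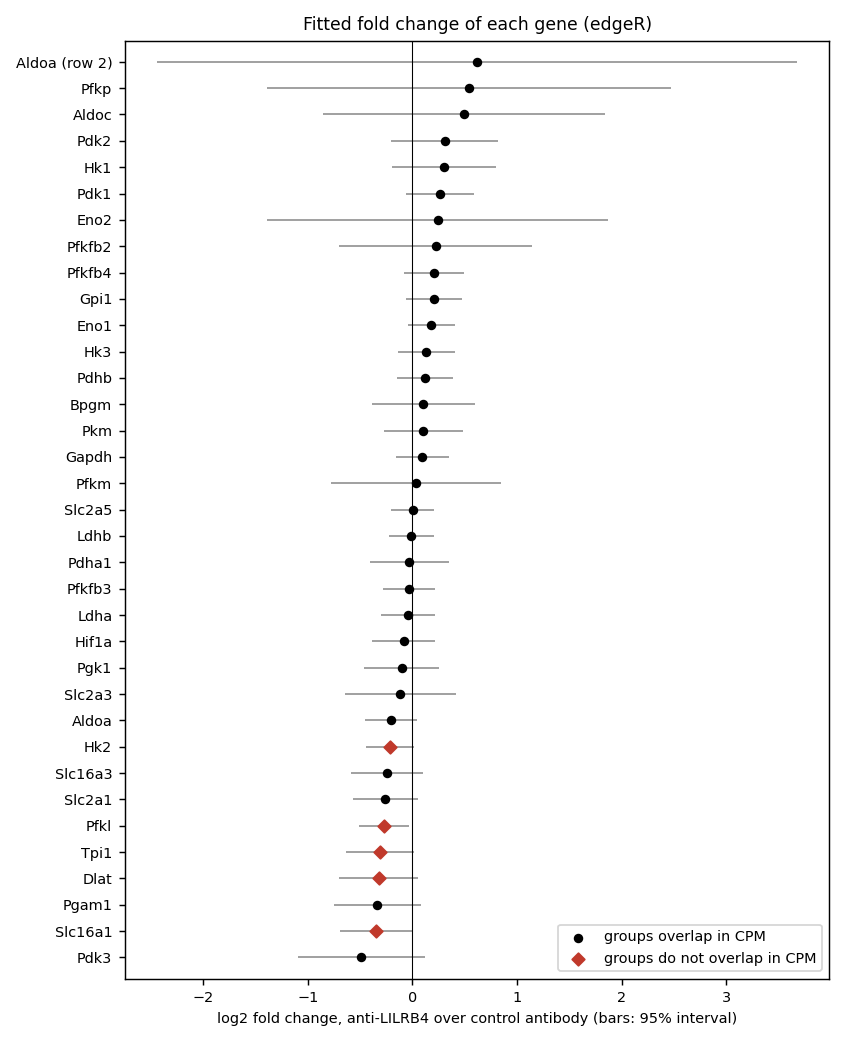
Points give the edgeR log2 fold change of anti-LILRB4 over control libraries for each of the 35 rows, with 95% intervals as bars. Red diamonds mark the 5 genes whose groups did not overlap. Only the intervals of Pfkl and Slc16a1 leave out 0, before any adjustment, and the widest intervals belong to the low genes Pfkp, Eno2, Aldoc and the second Aldoa row.

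The intervals show what size of difference remains possible. For Slc2a5, Ldhb, Ldha, Pfkfb3 and Gapdh both ends lay within 0.35 of 0 on the log2 scale, whereas for Pfkp the interval ran from -1.39 to 2.47. Several members have near-identical copies in the genome. Named pseudogenes and retrocopies took between 2.39 and 3.71% of counts of Pgam1 and its copies, 1.72 and 2.42% for Eno1 with Eno1b, and 1.03 and 1.34% for Gapdh. For Aldoa, Ldha and Pgk1 the share was at most 0.925%, and for Tpi1 at most 1.75%. How the counting split reads among such copies is not given in the sources used here.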

How the data were processed

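RNA came from sorted microglia, and the cDNA kit for small inputs kept no strand information, per the labels' protocols. The deposited table holds raw read counts per Ensembl gene. Per the submitters' processing notes the tools included DESeq2 1.38.3, Salmon, STAR and featureCounts of Subread, with no roles given. The sources used here give neither build nor annotation. The authors' second table gives, per the file headers, DESeq2 columns: a mean normalized count (a signal), log2 fold change and its standard error on the log2 scale, a score (fold change over its error), and p-values. Rows that repeated an identifier (287, identical counts) were dropped. The main test was edgeR 4.0.16 in R 4.3.3 (filterByExpr, minimum count 10, TMM, quasi-likelihood F test, Benjamini-Hochberg adjustment over 18210 genes, threshold 0.05). Standard errors are the fold change over the square root of F. DESeq2 1.42.0, limma-voom 3.58.1, other scalings, filters, a replicate block and leaving out libraries were alternatives. Tests were checked on simulated data, in which changed genes were drawn only from those above a minimum mean CPM. No change between 0 and 1 on the log2 scale was simulated, so the counts called do not give the power for smaller changes. With 100 genes changed by 1 and 100 by 2 on the log2 scale, edgeR called 76 and 99 of them, with 11 false calls. DESeq2 called 86 and 99, with 55 false calls, and limma-voom 71 and 99, with 11. With no change simulated, DESeq2 made 8 calls and the other tests 0. Coordinates and exon lengths are those of GENCODE M21, promoters of RefSeq GRCm38.p6. The members, gene lists and ratios were chosen with earlier results of these data known. Members were all eligible for naming, with per-library values for the 12 of smallest p, the 10 most abundant, those without overlap and those in ratios, and 2 genes of smallest p per other list. Results for some genes are not reported here.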

Additional observations from a re-analysis of the deposited data

How the results depend on the processing

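The count of 0 members called held under all 15 alternative fits, and 20 of 35 members kept the sign of their log2 fold change in all of them. Over all genes, 169 were called with DESeq2 and 300 with edgeR and no filter on low counts, against 0 with edgeR and the filter, and 0 of these were members. The members with an unadjusted p under 0.05, 2 in the main test, were 1 with library size only, 4 with upper quartile scaling, 1 with limma-voom, and between 2 and 4 when single libraries were left out, the 4 without control library 2. The median log2 fold change over all members, 0.0035, was -0.026 with upper quartile scaling, -0.033 with limma-voom, and between -0.086 and 0.061 with single libraries left out. Isozyme ratios whose groups did not overlap, 2 of 12, were between 2 and 5 with single libraries left out, 4 without anti-LILRB4 library 1 and 5 without control library 2, and 5 where each same-numbered pair was compared (replicate block). Leaving out a library or comparing by pairs is a looser criterion that can only keep or raise this count. The higher counts are therefore not comparable with the 2 of 12, and no conclusion is drawn from the rise. Same-numbered libraries did not deviate together over all genes (correlations of deviations from group means 0.014, 0.029 and -0.014). Differently numbered libraries gave correlations from -0.057 to 0.039. Such correlations cannot exclude a pairing that touches only some genes. The replicate block in edgeR gave 0 calls. Signs turned for Ldhb with library size only (0.0049), for Slc2a5 with upper quartile scaling (-0.026) and with a CPM of at least 1 in 3 libraries (-0.0024), for Pfkm with limma-voom (-0.054) and the replicate block (-0.015), and for ENSMUSG00000114515, the second Aldoa row, with limma-voom (-0.35) and the replicate block (-0.995). With single libraries left out, log2 fold changes that turned sign ran from -0.076 to 0.082 for Slc2a5, -0.22 to 0.079 for Slc2a3, -0.30 to 0.31 for Pfkm, -0.081 to 0.55 for Pfkfb2, -0.086 to 0.029 for Pfkfb3, -0.19 to 1.41 for Aldoc, -2.17 to 1.43 for ENSMUSG00000114515, -0.21 to 0.085 for Pgk1, -0.020 to 0.25 for Bpgm, -0.26 to 0.69 for Eno2, -0.11 to 0.22 for Pkm, -0.12 to 0.061 for Ldha, -0.058 to 0.054 for Ldhb, -0.15 to 0.057 for Pdha1 and -0.15 to 0.031 for Hif1a. The cause was not tested. With 3 libraries a group, permutation tests cannot go below 0.1, and genes near 1 CPM are imprecise.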

Other observations

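Other isozymes and carriers of the same families were a list of 25 genes, of which 14 passed the filter on low counts and 0 were called by edgeR. At an unadjusted p under 0.05, 2 were higher and 2 lower, and each of these 4 had groups that did not overlap. They are 28.6% of the 14, where 8.03% of all genes reached that p and 14.7% had groups that did not overlap. This list too was chosen with earlier results of these data known, so the share is a description only. Slc2a9, a urate carrier related to the glucose carriers, was at 9.51, 12.97 and 13.9 CPM in anti-LILRB4 libraries and 4.70, 6.67 and 5.26 CPM in control libraries (log2 fold change 1.13, SE 0.25, adjusted p 0.426, edgeR). Slc2a10, a carrier of the same family, was at 1.64, 0.386 and 1.12 CPM in anti-LILRB4 libraries and 4.68, 2.80 and 3.37 CPM in control libraries (log2 fold change -1.79, adjusted p 0.461). The remaining pair was noted after its values were seen. Slc2a6, a lysosomal member of the family, was at 3.26, 4.63 and 2.57 CPM in anti-LILRB4 libraries and 8.79, 5.40 and 5.37 CPM in control libraries, and Ldhd, a dehydrogenase of D-lactate, at 2.53, 1.12 and 3.13 CPM in anti-LILRB4 libraries and 0.701, 1.02 and 1.00 CPM in control libraries. The tissue-restricted isozymes Pklr, Pgk2 and Ldhc did not exceed 0.175 CPM in any library. These were also picked out after their values were seen.

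Among the lists of other cells, border-associated macrophage markers summed to 36.6, 36.2 and 60.7 CPM in anti-LILRB4 libraries and 38.6, 31.5 and 34.4 CPM in control libraries, monocyte markers to 33.05, 67.5 and 26.7 CPM in anti-LILRB4 libraries and 90.1, 43.5 and 49.3 CPM in control libraries, and lymphocyte markers to 24.1, 58.5 and 39.3 CPM in anti-LILRB4 libraries and 59.4, 13.8 and 39.2 CPM in control libraries. Mural markers summed to 1.31, 1.68 and 0.947 CPM in anti-LILRB4 libraries and 2.06, 1.26 and 0.751 CPM in control libraries, with Rgs5 at 0, and choroid plexus and ependyma markers to 16.5, 13.7 and 12.9 CPM in anti-LILRB4 libraries and 9.34, 13.3 and 9.06 CPM in control libraries, with Foxj1 at 0. Oligodendrocyte markers summed to 166, 159 and 171 CPM in anti-LILRB4 libraries and 125, 144 and 130.2 CPM in control libraries, most of it Cnp, at 90.9, 106 and 110.4 CPM in anti-LILRB4 libraries and 72.1, 79.7 and 80.8 CPM in control libraries, which did not overlap (adjusted p 0.485, edgeR).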
